A study of Mus musculus with 12 samples.

Results

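The genes described here are 36 endothelial and angiogenic genes measured in mouse quadriceps, taken by name from the array annotation, of 12771 genes tested in all. The choice was made with earlier results of these data known. The 36 genes comprise 23 general endothelial markers, 7 other receptors, channels and regulators of endothelium, and 6 ligands. Each gene was read from its brightest probe set, a set of short probes for one transcript, and all 36 members were measured and lay above the filter on dim probe sets. Quadriceps of C57Bl/6J mice was collected after 6 days of treatment in 4 groups. One group had vehicle, one had AICAR (250 mg/kg/day), one had GW1516 (5 mg/kg/day) and one had both drugs at those doses, called the combination. AICAR is an activator of the AMP-activated protein kinase, and GW1516 is an agonist of the nuclear receptor PPAR delta. Each group had 3 arrays, and each array carried RNA pooled from 3 mice of its group. The labels give no age, sex or vehicle composition, and do not tell whether any 2 pools can hold RNA of one mouse. The p-values therefore measure the spread between pools, not between single animals.

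Blood vessels of skeletal muscle are lined by endothelial cells, which hold together through junction proteins such as VE-cadherin (Cdh5) and Pecam1 and keep their identity through transcription factors of the SOX and ETS families. They sense vascular endothelial growth factors through Kdr, Flt1 and Flt4, angiopoietins through Tek, and adrenomedullin through the receptor Calcrl, which needs the accessory protein Ramp2. Muscle fibres are a main source of Vegfa and Vegfb in this tissue. In whole muscle, fewer endothelial cells and less RNA per cell cannot be told apart, and a signal that many cell types share cannot be assigned to one of them.

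Values are MAS5 signals, the authors' summary of each probe set on a linear scale, and every array had a trimmed mean signal of 200. Differences are means of log2 signal ± standard error (SE), treated minus vehicle, from limma, and genes whose Benjamini-Hochberg adjusted p over all genes was under 0.05 count as called. The median signal of an array was 45.4 to 54.2. GW1516 replicate 2 stood apart from the other arrays on the first principal component, and its fibroblast markers were low, with a median 1.43 log2 units below the vehicle mean. Its general endothelial markers lay close to vehicle, with a median of -0.07. Without this array 1 member was called for AICAR (Ramp2) and 1 for the combination (Adgrf5). Of all 12771 genes, 8 and 95 were then called in these 2 comparisons. The 7 skeletal muscle markers were all measured, with a summed signal of 155820 to 200530, and on the combination arrays the list's median was 0.18 to 0.22 above the vehicle mean.

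The 36 genes did not move as one group. Adgrf5 was the one member that passed the test, in the combination group, where it rose by 0.57 log2 units. Its difference with AICAR alone was also 0.57 but did not pass the test. Ramp2 had the largest positive difference of any member with AICAR, which did not pass the test. Of the general endothelial markers, Pecam1 and Kdr overlapped vehicle in every comparison, Sox18 lay above vehicle and Tek below it in all treated groups, and Ptprb, Robo4, Sox7, Sox17 and Cdh5 left the vehicle range in 1 comparison each.

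With AICAR, 0 of 36 members were called, against 0.00783% of all genes tested (1 gene). At an unadjusted p below 0.05 in limma, 5 members were higher and 2 lower, where 6.93% of all genes reached that level in either direction. GW1516 gave 0 called members (0.094% of all genes), with 2 higher and 1 lower at an unadjusted p below 0.05 (9.64% of all genes). For the combination 1 member was called, against 0.258% of all genes, and 5 were higher and 2 lower at an unadjusted p below 0.05 (10.9% of all genes). Averaged over both backgrounds, the AICAR effect had 0 called members (0.0313% of all genes), with 5 higher and 0 lower at an unadjusted p below 0.05 (10.4%). The average GW1516 effect likewise had 0 called members (0.149%), with 1 higher and 1 lower (9.51%). The interaction is the combination's difference from vehicle less the sum of the differences with each drug alone. For it 0 members were called (0% of all genes), with 1 higher and 1 lower at an unadjusted p below 0.05 (6.64%). The 3 comparisons with vehicle share the same vehicle arrays.

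The heat map of the 36 genes shows these values array by array.

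**Figure D1:**
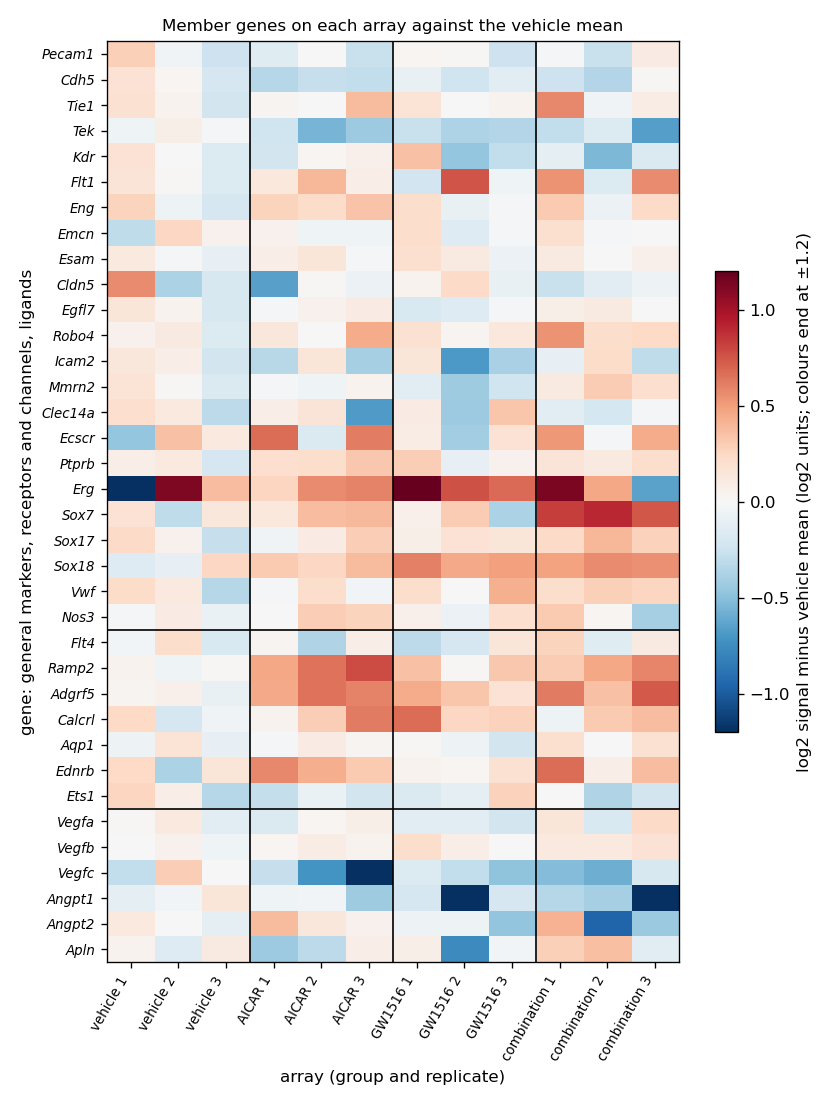
Log2 signal of each of the 36 genes on each of the 12 arrays, minus the gene's mean over the 3 vehicle arrays (colour, log2 units), with genes ordered by role and arrays by group. Adgrf5, Ramp2 and Sox18 are red across most of the 9 treated arrays and Tek is blue on all of them, while most other rows mix colours within a group.

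Adgrf5 is an adhesion G protein-coupled receptor known in endothelium and lung epithelium. Its signals were 779, 794 and 715 on the vehicle arrays, 1043, 1199 and 1153 with AICAR, 1035, 960.5 and 860.1 with GW1516, and 1170, 973 and 1266 with the combination. Every treated array lay above every vehicle array. In the combination group it rose by 0.57 ± 0.11 on the log2 scale, a 1.48-fold change (adjusted p = 0.0477), and by p it was the last of the 33 genes called there. With AICAR the difference was also 0.57 ± 0.11 (adjusted p = 0.164), and with GW1516 it was 0.32 ± 0.11 (adjusted p = 0.436). Averaged over both backgrounds, the AICAR effect was 0.41 ± 0.08 (adjusted p = 0.0624). The interaction was -0.32 ± 0.15 (adjusted p = 0.7465). The second probe set of Adgrf5, with a mean signal of 137, gave 0.56, 0.64 and 0.69 for AICAR, GW1516 and the combination. The call rested on a narrow margin. Across 24 other settings the combination difference ranged from 0.49 to 0.68 with an adjusted p of 0.0252 to 0.188, and it was called in 8 of them. Leaving out vehicle replicate 1, 2 or 3 gave adjusted p = 0.166, 0.128 and 0.179, and leaving out AICAR replicate 1, 2 or 3 gave 0.0672, 0.0907 and 0.0786. Without combination replicate 1 or 3 the adjusted p was 0.0889 and 0.185.

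Ramp2 pairs with Calcrl to form an adrenomedullin receptor. Its signals were 419, 394 and 411 on the vehicle arrays, 564, 641 and 699.9 with AICAR, 522, 411 and 512 with GW1516, and 503, 561 and 611 with the combination. All AICAR and all combination arrays exceeded all vehicle arrays, while GW1516 replicate 2 overlapped them. The difference was 0.63 ± 0.12 with AICAR (1.55-fold, adjusted p = 0.164), 0.23 ± 0.12 with GW1516 (adjusted p = 0.551) and 0.45 ± 0.12 with the combination (adjusted p = 0.186). None passed the test over all genes. Without GW1516 replicate 2, which lies outside the comparison but enters the shared spread, the AICAR difference was called (adjusted p = 0.0387). The average AICAR effect was 0.42 ± 0.08 (adjusted p = 0.0867) and the average GW1516 effect 0.02 ± 0.08.

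One limit touches Ramp2 directly. The annotation gives 2 other probe sets to both Ramp2 and its chromosomal neighbour Vps25, and these were not used for that reason. They gave -0.10 and -0.12 for AICAR, -0.06 and -0.06 for GW1516, and -0.09 and -0.05 for the combination. The difference described for Ramp2 therefore rests on 1 probe set, and which transcripts the shared probe sets report was not tested.

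Calcrl, the receptor that Ramp2 carries, was dimmer and more variable. Its signals were 67.5, 49.97 and 55.8 on the vehicle arrays, 59.0, 70.5 and 88.3 with AICAR, 90.9, 68.0 and 69.2 with GW1516, and 54.9, 71.2 and 74.0 with the combination. The differences were 0.32 ± 0.26, 0.40 ± 0.26 and 0.21 ± 0.26, with adjusted p = 0.837, 0.638 and 0.809. Only the GW1516 arrays lay wholly above vehicle. A second probe set gave -0.44, -0.30 and 0.45, so the direction with either drug alone differed between probe sets.

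**Figure D2:**
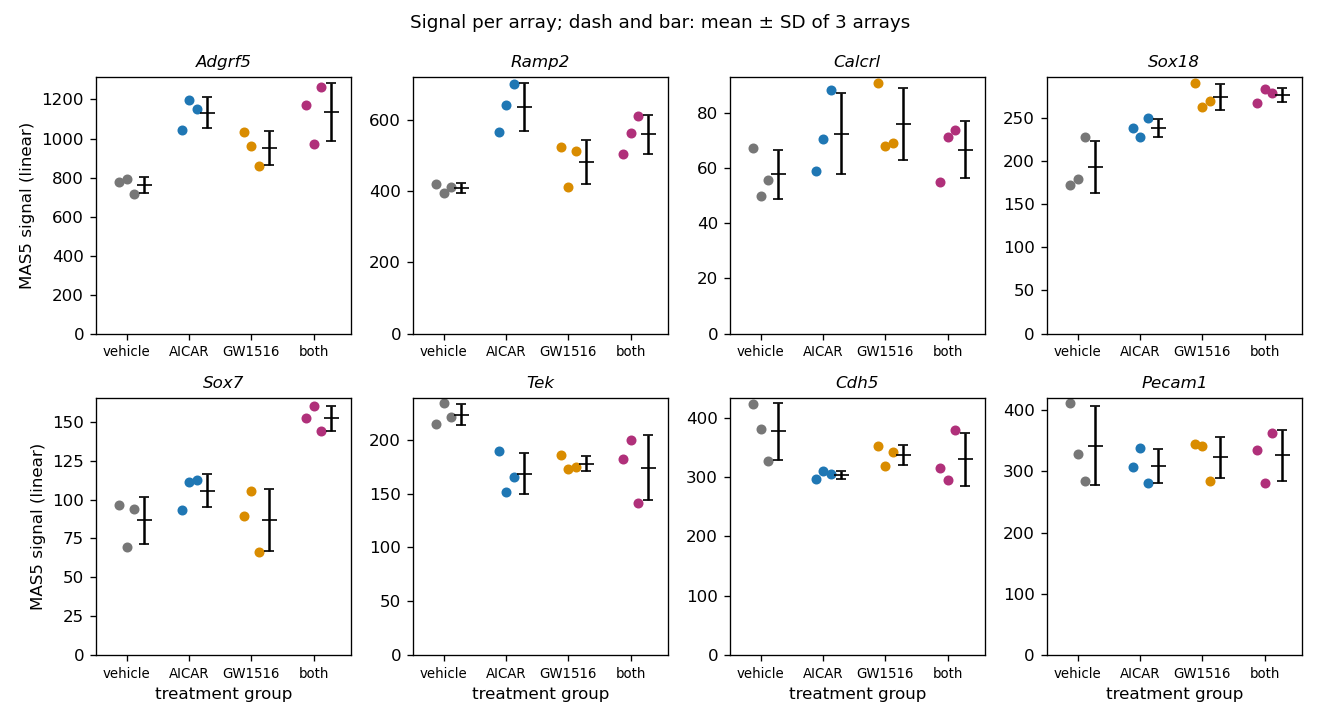
MAS5 signal (linear, axis from 0) on each array for 8 genes in the vehicle, AICAR, GW1516 and combination (both) groups, with the mean ± SD of 3 arrays beside the points. Adgrf5 lies above vehicle in every treated group, Sox7 lies above vehicle without overlap in the combination group alone, Tek lies below vehicle in every treated group, and Pecam1 overlaps vehicle throughout.

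To show what lies before these genes, bases upstream of the first annotated base were taken from RefSeq (mouse build GRCm38.p6) for 2 of the receptors and 2 of the general markers. They are written 5′ to 3′ on the gene's strand. Capitals mark the letters AACAAT (a core of SOX binding sites) or AGGTCA (a nuclear receptor half-site) on either strand. The Adgrf5 stretch is chr17:43360181-43360328 on the plus strand, Calcrl is chr2:84425406-84425516 on the minus strand, Robo4 is chr9:37401722-37401901 on the plus strand, and Tie1 is chr4:118489850-118490049 on the minus strand.
Adgrf5: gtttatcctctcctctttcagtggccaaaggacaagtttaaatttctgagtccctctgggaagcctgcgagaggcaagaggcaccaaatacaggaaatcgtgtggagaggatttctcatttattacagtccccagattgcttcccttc
Calcrl: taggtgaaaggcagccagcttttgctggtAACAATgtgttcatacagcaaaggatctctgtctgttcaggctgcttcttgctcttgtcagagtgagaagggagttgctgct
Robo4: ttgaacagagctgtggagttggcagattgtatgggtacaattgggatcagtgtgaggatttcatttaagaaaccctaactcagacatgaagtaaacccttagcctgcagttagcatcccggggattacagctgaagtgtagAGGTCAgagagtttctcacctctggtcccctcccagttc
Tie1: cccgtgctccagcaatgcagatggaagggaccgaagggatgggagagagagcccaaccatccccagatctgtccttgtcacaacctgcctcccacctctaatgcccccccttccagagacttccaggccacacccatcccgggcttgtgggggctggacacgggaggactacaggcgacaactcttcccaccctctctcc
The Calcrl stretch holds 1 SOX core and the Robo4 stretch 1 half-site, and those of Adgrf5 and Tie1 hold neither. None of the 4 printed stretches holds AGGAAG, a core of ETS binding sites, on either strand. All 4 genes do have it in a longer start-site window, as given next.

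RefSeq start-site windows of 250 bases were found for 20 of the 36 members, in 26 windows. The members without an entry were Pecam1, Nos3, Esam, Mmrn2, Vwf, Sox17, Angpt1, Ramp2, Cdh5, Ecscr, Icam2, Sox18, Sox7, Angpt2, Ptprb and Ets1. AGGAAG on either strand was present in 12 of the 26 windows (46.2%) and in 29.5% of all 32851 windows. The 12 windows belong to 11 members, Adgrf5, Apln, Aqp1, Calcrl, Egfl7, Emcn, Eng, Erg, Flt1, Robo4 and Tie1. For Adgrf5, Calcrl, Robo4 and Tie1 the match lies outside the stretch printed above. A window can reach past the first annotated base, and a gene can have several windows, so these matches need not lie further upstream. AACAAT was present in 4 of the 26 windows (15.4%), those of Calcrl, Emcn, Erg and Tek, and in 9.4% of all windows. AGGTCA was present in 5 (19.2%), against 14.0% of all windows. None of the 3 motifs contains another. These are matches of letters only, and the arrays did not measure binding.

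Whether Adgrf5 and Ramp2 moved with the general endothelial markers was read from the median of the 23 markers on each array, relative to the vehicle mean. That median was 0.15, 0.04 and -0.18 on the vehicle arrays, 0.03, 0.10 and 0.08 with AICAR, 0.10, -0.07 and -0.02 with GW1516, and 0.19, -0.01 and 0.09 with the combination. The groups overlapped, and the vehicle arrays held both the lowest value and one of the highest. Vehicle replicate 1 was the highest vehicle array for 15 of the 23 markers, and vehicle replicate 3 was the lowest for 16. On the same scale Adgrf5 was 0.03, 0.06 and -0.09 on the vehicle arrays, 0.45, 0.66 and 0.60 with AICAR, 0.44, 0.33 and 0.18 with GW1516, and 0.62, 0.35 and 0.73 with the combination.

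Adgrf5 stood apart from the markers on all 9 treated arrays. Taken as the gene minus the marker median, it exceeded vehicle by 0.51 with AICAR, 0.32 with GW1516 and 0.48 with the combination, with no overlap between groups. Ramp2 exceeded vehicle by 0.57 with AICAR with no overlap, and by 0.23 with GW1516 and 0.36 with the combination with overlap. In the two-sided exact permutation test the Adgrf5 gaps and the AICAR gap of Ramp2 each had p = 0.1, the smallest that 3 arrays against 3 allow, and the other Ramp2 gaps had p = 0.2. Over the 108 gaps computed for the 36 genes the smallest Benjamini-Hochberg adjusted p was 0.45, so this design could not reach the threshold. Of these gaps 12 were above vehicle without overlap and 12 below. Gaps were computed for the 36 members only, so the share over all genes is not known. These members were chosen with earlier results of these data known, so the gaps are no independent support. When each array was centred on the general markers before the fit, Adgrf5 in the combination group was 0.51 higher with an adjusted p of 0.0978 in limma.

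Other genes also left the marker median, general markers among them, each set against the other markers. Sox7 exceeded vehicle by 0.75 with the combination and Sox18 by 0.525 with GW1516, without overlap (exact permutation p = 0.1 each). Smaller gaps above vehicle without overlap were those of Eng and Ptprb with AICAR, Robo4 with GW1516 and the combination, and Tie1 with GW1516. Tek lay below by 0.49 with AICAR and 0.35 with GW1516, and Kdr by 0.37 with the combination, also without overlap. Cdh5, itself a general marker, went the other way from Adgrf5, with gaps of -0.38, -0.17 and -0.29 from the other markers for AICAR, GW1516 and the combination, each without overlap (exact permutation p = 0.1 each). Calcrl exceeded the markers by 0.26, 0.40 and 0.12, without overlap for GW1516 alone. Pecam1 lay below them by 0.21 with AICAR without overlap, and overlapped vehicle with GW1516 and the combination, where the gaps were -0.07 and -0.15.

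**Figure D3:**
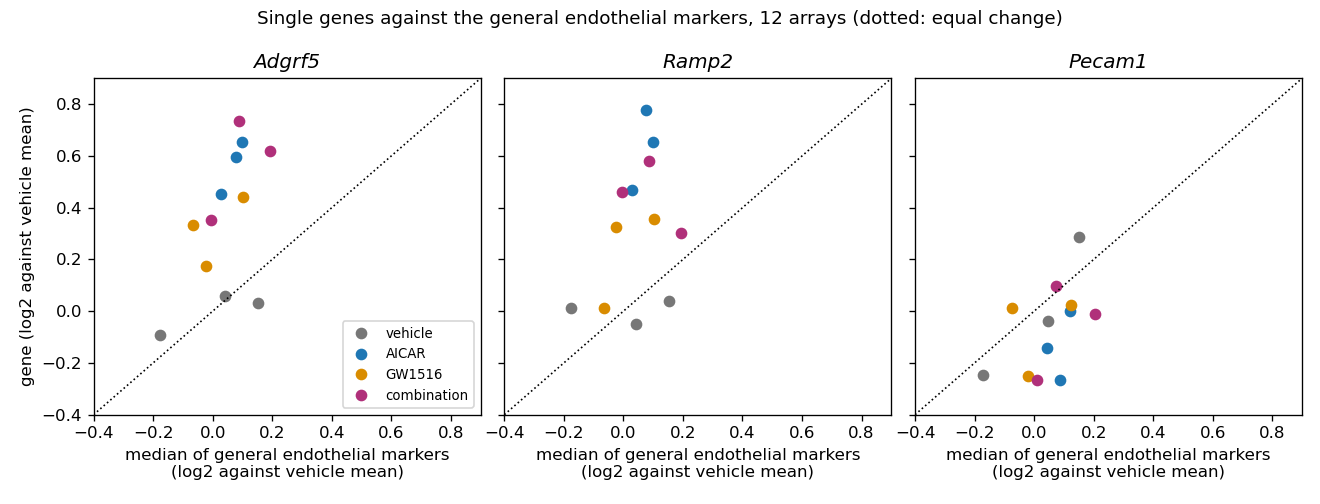
Log2 signal of Adgrf5, Ramp2 and Pecam1 (vertical axes) against the median of the general endothelial markers (horizontal axes) on the 12 arrays, both relative to the vehicle mean, with Pecam1 left out of its own median and a dotted line of equal change. The treated arrays of Adgrf5 lie above the line, from 0.20 to 0.65 over the markers, whereas the arrays of Pecam1 lie on both sides of the line, most of them below it.

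The likeness of each gene's profile was described by Pearson's r of log2 signal over the 12 arrays, which share group means and pools, so no p is given. Of the 12770 other genes, those most like Adgrf5 were Sptbn1 (r = 0.91), Iah1 (0.90), Sult1a1 (0.87), Htr4 (0.87) and Adamtsl4 (0.86). Ramp2 ranked 26th in that order (r = 0.81). The r of Adgrf5 with the 23 general markers had a median of 0.27 and ran from -0.84 for Tek to 0.70 for Ptprb. Once group means were removed, the median r of Adgrf5 with the 23 markers was 0.14. Single values included 0.72 for Pecam1, 0.67 for Cdh5 and -0.63 for Tek. Over all 12 arrays Pecam1 and Cdh5 were at 0.08 and -0.38. Within groups Adgrf5 was closest among the members to Vegfa (r = 0.91) and Aqp1 (0.83), and with Ramp2 its r was 0.21.

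For Ramp2 the most similar profiles were those of Tox (r = 0.91), Invs (0.89), Ebf2 (0.88), Ces2f (0.88) and Cuzd1 (0.85). Its r with the general markers had a median of 0.21 and ran from -0.74 for Tek to 0.75 for Ptprb, and with Pecam1 it was -0.27. Within groups Ramp2 was closest among the members to Calcrl (r = 0.79), read from its brightest probe set. The rank of that value over all genes was not taken. The general markers themselves were only loosely alike. Over their 253 pairs the median r was 0.11, and 170 pairs had a positive r.

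As a group, the 23 general markers had a median difference of 0.07 with AICAR (14 above 0, 9 below), 0.03 with GW1516 (13 and 10) and 0.16 with the combination (15 and 8). Over all genes tested the medians were 0.01, -0.01 and 0.00. None of the 23 was called in any of the 6 contrasts. The combination median was 0.06 without vehicle replicate 3 and 0.03 without combination replicate 1. Centring each array on the median of its probe sets moved the median of all genes with AICAR to -0.11. That of the markers moved to -0.05, with 11 of the 23 above 0 instead of 14. Such centring shifts every gene of an array alike, so it cannot change the 0.06 by which the markers lay above all genes. Under quantile normalization the markers lay 0.08 above all genes with AICAR.

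Among the growth factor receptors, Kdr, the main signalling receptor for Vegfa, had signals of 368, 327 and 292 on the vehicle arrays, 281, 333 and 342 with AICAR, 417, 238 and 268 with GW1516, and 305, 226 and 291 with the combination. The groups overlapped throughout, and the combination difference was -0.27 ± 0.19 (adjusted p = 0.644). Flt1, which binds Vegfa and Vegfb and can act as a decoy, was spread more widely. It had signals of 340.3, 309.5 and 273 with vehicle, 335, 404 and 323 with AICAR, 261, 517 and 296 with GW1516, and 444, 274 and 453 with the combination. Its differences were 0.20 ± 0.24, 0.16 ± 0.24 and 0.31 ± 0.24, none of them called. Over the 4 Flt1 probe sets the combination difference ran from -0.04 to 0.31. For the lymphatic receptor Flt4 the differences ran from -0.13 to 0.08, while a second probe set gave 0.51, 0.59 and 0.38.

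The angiopoietin receptor Tek had lower values on every treated array. Its signals were 215, 234 and 221 with vehicle, 189, 151 and 165 with AICAR, 186, 173 and 175 with GW1516, and 182, 199.6 and 141 with the combination. The differences were -0.41 ± 0.15, -0.33 ± 0.15 and -0.37 ± 0.15, with adjusted p = 0.634, 0.515 and 0.384, so none was called. Tie1, the related receptor that modulates Tek, had signals of 235, 213 and 178 with vehicle, 212, 209 and 269.9 with AICAR, 232, 206 and 214 with GW1516, and 310.1, 201 and 221 with the combination. Its groups overlapped, and its differences were 0.14 ± 0.17, 0.07 ± 0.17 and 0.21 ± 0.17. Ptprb, a phosphatase that acts on Tek, lay above vehicle on every AICAR array, by 0.25 ± 0.11 (adjusted p = 0.713). A second Ptprb probe set gave 0.03 with AICAR.

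Of the junction proteins, Pecam1 had signals of 413, 329 and 285 with vehicle, 306.5, 338 and 282 with AICAR, 344, 341 and 284 with GW1516, and 336, 281 and 362 with the combination. Its differences were -0.14 ± 0.15, -0.07 ± 0.15 and -0.06 ± 0.15, with 95% intervals that all lay between -0.46 and 0.26. Cdh5 read 423, 381 and 327 with vehicle, 296, 310.0 and 305 with AICAR, 351, 319 and 341 with GW1516, and 315, 295 and 379 with the combination. All AICAR arrays lay below all vehicle arrays, with a difference of -0.30 ± 0.12 (adjusted p = 0.665), and a second Cdh5 probe set gave -0.26. The tight junction protein Cldn5 and the adhesion proteins Esam and Icam2 overlapped vehicle in every comparison.

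Nos3, the endothelial nitric oxide synthase, had signals of 233, 254 and 225 with vehicle, 238, 292 and 285 with AICAR, 248, 226 and 273 with GW1516, and 294, 240.4 and 179 with the combination. The groups overlapped, and its AICAR difference was 0.19 ± 0.17 (adjusted p = 0.848).

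Of the SOX transcription factors, which specify and maintain endothelium, Sox7 and Sox18 had the largest differences of the general markers in the combination group. Sox18 had signals of 172, 179 and 227.1 on the vehicle arrays, 238, 227.5 and 249 with AICAR, 290.4, 262 and 269 with GW1516, and 267, 283 and 279 with the combination. The 6 arrays with GW1516 lay above the 6 without it. The differences from vehicle were 0.31 ± 0.13 (adjusted p = 0.664), 0.52 ± 0.13 (adjusted p = 0.252) and 0.53 ± 0.13 (adjusted p = 0.129), and the average GW1516 effect was 0.37 ± 0.09 (adjusted p = 0.25).

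Sox7 lay apart from vehicle in the combination group alone. It had signals of 96.5, 69.4 and 94.1 with vehicle, 93.4, 111 and 113 with AICAR, 89.5, 106 and 66.0 with GW1516, and 152, 160.3 and 144 with the combination. The combination arrays were the 3 highest of all 12, with a difference of 0.83 ± 0.21, the largest of any member there (adjusted p = 0.163). The interaction was 0.54 ± 0.30 (adjusted p = 0.761), so an excess over the sum of both drugs was not shown. A second Sox7 probe set below the filter (mean signal 27.95) gave 0.95, -0.72 and -0.10 for AICAR, GW1516 and the combination. Sox17 lay above vehicle on all combination arrays, by 0.30 ± 0.16 (adjusted p = 0.511). The margin was small, with 167.2 on the lowest combination array against 167 on the highest vehicle array. A second Sox17 probe set gave -0.10, -0.17 and 0.10 for AICAR, GW1516 and the combination. The ETS factor Erg was dim and scattered, with signals between 11.5 and 83.0, and its differences carried an SE of 0.59.

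Counted without a model, 5 members had all AICAR arrays above all vehicle arrays (9.3% of all genes did), namely Ptprb, Sox18, Ramp2, Adgrf5 and Ednrb, and 2 had them below (9.03%), namely Cdh5 and Tek. With GW1516 there were 3 above (6.3%), which were Sox18, Adgrf5 and Calcrl, and 2 below (7.91%), Tek and Angpt1. The combination had 7 above (8.9%), which were Robo4, Sox7, Sox17, Sox18, Ramp2, Adgrf5 and Vegfb, and 2 below (9.69%), again Tek and Angpt1. All 9 treated arrays lay above all 3 vehicle arrays for 2 members, Sox18 and Adgrf5 (1.08% of all genes), and below them for 1, Tek (1.42%).

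The remaining receptors and regulators showed no called difference. Ednrb, the endothelin receptor that mediates vessel relaxation, was 0.44 ± 0.19 higher with AICAR (adjusted p = 0.697), with signals of 208, 189 and 174 against 165, 108 and 154 with vehicle. All its AICAR arrays exceeded vehicle, but its 2 other probe sets did not all agree in sign. The water channel Aqp1 was measured most precisely of this group, and its differences of 0.04, -0.09 and 0.13 each had an SE of 0.09. Ets1, an ETS transcription factor, had differences of -0.19, 0.00 and -0.19, with probe sets that differed in sign.

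**Figure D4:**
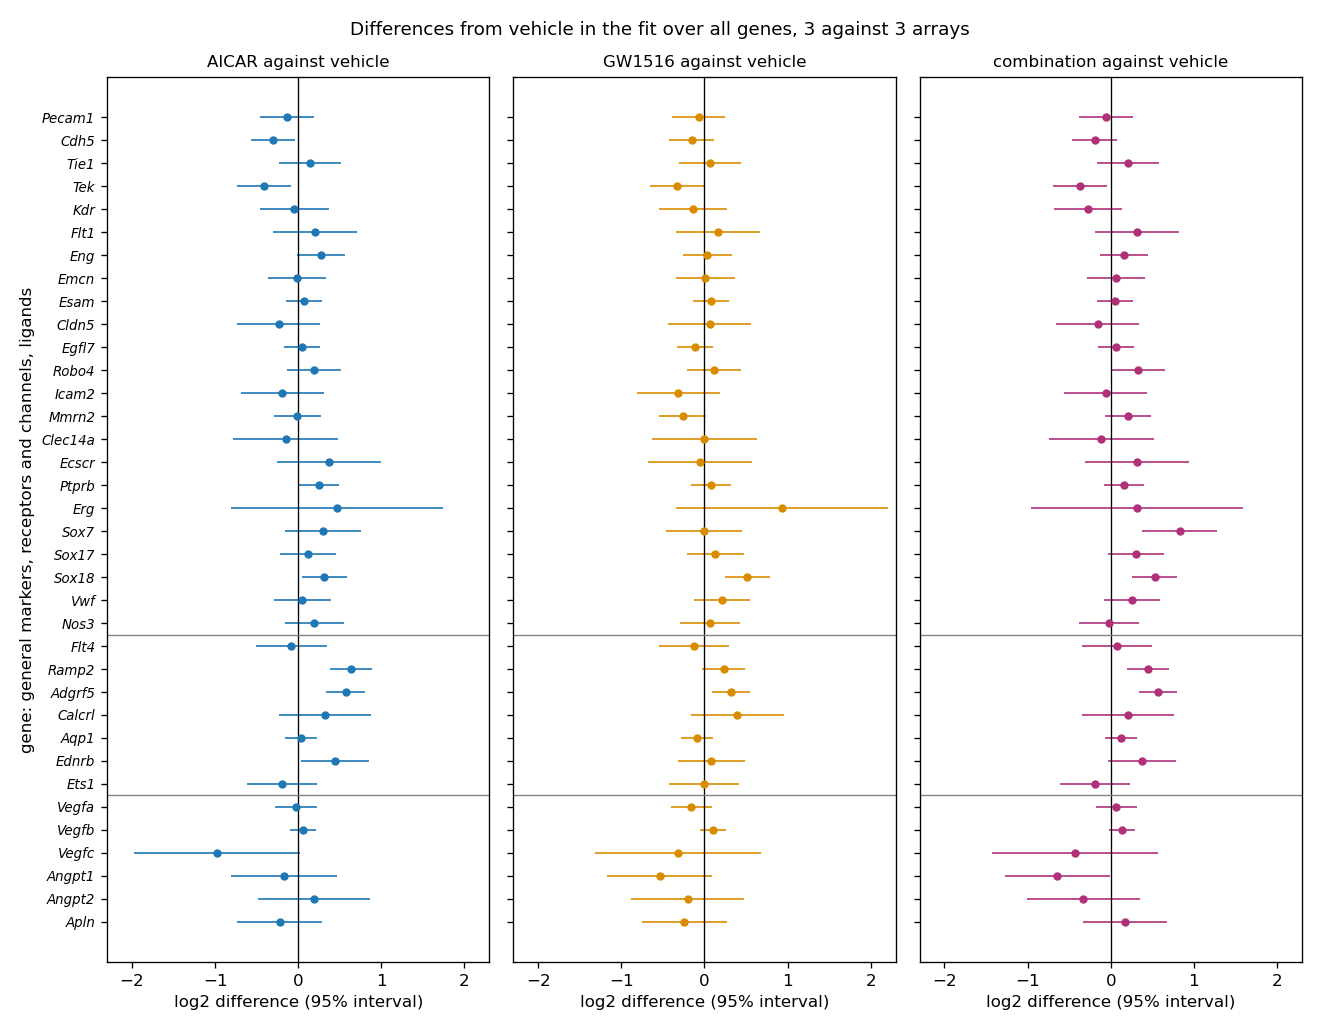
Log2 difference from vehicle for each of the 36 genes with AICAR, GW1516 and the combination (points), with 95% intervals from the fit over all genes and 3 arrays in each group. Adgrf5 and Ramp2 lie to the right of 0 with AICAR and the combination, at 0.57 and 0.63 and at 0.57 and 0.45, while most general markers straddle 0.

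None of the 6 ligands was called in any contrast. Vegfa, the chief angiogenic factor, had signals of 667, 713 and 602 with vehicle, 584, 672 and 694 with AICAR, 605, 601 and 567 with GW1516, and 731, 581 and 774 with the combination. Its differences were -0.02 ± 0.12, -0.16 ± 0.12 and 0.07 ± 0.12, and the 95% intervals lay between -0.41 and 0.32. A second Vegfa probe set gave -0.20, -0.34 and -0.16. Vegfb, a ligand of Flt1, was tightly measured, with signals of 1891, 1956 and 1825 with vehicle, 1927, 2005 and 1952 with AICAR, 2192, 2001 and 1890 with GW1516, and 2056, 2056 and 2127 with the combination. The combination arrays all lay above vehicle, by 0.14 ± 0.07 (adjusted p = 0.514). Apln, which signals through the apelin receptor, had signals of 128, 112 and 134 with vehicle, 92.0, 100.3 and 132 with AICAR, 131, 73.3 and 121 with GW1516, and 152, 160.0 and 113 with the combination. Its groups overlapped, and its differences were -0.22 ± 0.24, -0.24 ± 0.24 and 0.17 ± 0.24.

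Angpt1 is the activating ligand of Tek. Its signals were 118, 125 and 141 with vehicle, 124, 125 and 95.2 with AICAR, 112, 54.8 and 112 with GW1516, and 101, 97.1 and 55.9 with the combination. All GW1516 and all combination arrays lay below vehicle. The average GW1516 effect was -0.51 ± 0.21 (adjusted p = 0.461) and the combination difference -0.64 ± 0.29 (adjusted p = 0.451). The lowest arrays were GW1516 replicate 2 and combination replicate 3. Without the former the average GW1516 effect was -0.34, and without the latter the combination difference was -0.37. A second, dimmer probe set of Angpt1 gave differences of the same sign in all 3 comparisons. Angpt2, which antagonises Angpt1 at Tek, ranged from -0.33 to 0.19, and Vegfc, a ligand of Flt4, from -0.97 to -0.31 with an SE of 0.47.

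The width of the intervals shows what these arrays could resolve. The SE of a difference from vehicle ran from 0.07 to 0.59 over the 36 members, with a median of 0.16. The 95% interval lay within 1 log2 unit either side of 0 for 34 members with AICAR, 33 with GW1516 and 31 with the combination. It lay within 0.5 log2 units for 12, 18 and 12 members. Of the 14 members with several probe sets above the filter, all sets had the same sign for 6 with AICAR, 7 with GW1516 and 9 with the combination.

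Genes of connected pathways were read from lists chosen beside the members, with 0 genes called in any list. In the adrenomedullin pathway (8 of 9 genes measured, Ramp2 and Calcrl among them) 7 were above 0 with AICAR, 6 with GW1516 and 6 with the combination, with medians of 0.22, 0.14 and 0.21. Ramp1, another accessory protein of the family, was -0.41 ± 0.15 with GW1516 (adjusted p = 0.436). Adm, the ligand of the receptor that Ramp2 completes, was 0.69 ± 0.35 higher with AICAR (adjusted p = 0.741) and 0.85 ± 0.35 with the combination (adjusted p = 0.389), where its signals of 88.8, 104 and 80.3 all lay above 56.7, 76.8 and 29.1 with vehicle. Gnas, the G protein subunit that carries the receptor's signal, was 0.20 ± 0.08 higher with the combination (adjusted p = 0.374).

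In the rest of the vascular endothelial growth factor and angiopoietin pathway (17 of 18 measured) the medians were 0.10, 0.11 and 0.10, and Epas1, a hypoxia-inducible transcription factor, was 0.29 ± 0.08 higher with the combination (adjusted p = 0.211). The combination differences in that list ran from -1.21 to 0.54. The Notch list (10 of 11) had medians of 0.16, 0.17 and 0.19, with Hey1, a Notch target, 1.05 ± 0.35 higher with GW1516 (adjusted p = 0.416). In the list for endothelial lipid handling (10 of 12) the medians were 0.22, 0.01 and 0.22, and Gpihbp1, which holds lipoprotein lipase at the capillary wall, was 0.24 ± 0.10 higher with the combination (adjusted p = 0.422). With GW1516 Meox2 had the smallest p in that list and was lower, and differences ran from -0.92 to 0.41. Secreted and matrix factors (13 of 15) had medians of 0.03, -0.26 and -0.08, and Tgfb2 was -0.46 ± 0.19 with AICAR (adjusted p = 0.675). By array the GW1516 median of these factors was 0.09, -0.62 and 0.02, so the low value came from replicate 2. Other G protein-coupled receptors of endothelium (8 of 11) had medians of 0.33, -0.06 and 0.18. Among them Adgrl4, an adhesion receptor like Adgrf5, was 0.40 ± 0.14 higher with GW1516 (adjusted p = 0.436), and S1pr1, the sphingosine phosphate receptor, was 0.43 ± 0.19 higher with AICAR (adjusted p = 0.708). Aplnr, with the next smallest p with GW1516, was lower, and the GW1516 differences of these receptors ran from -0.72 to 0.40.

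Markers of other cell types varied between pools. All 6 measured adipocyte markers (of 8) were above 0 with AICAR and with the combination and 5 with GW1516, with medians of 0.98, 0.64 and 0.70, and 0 were called. By array the adipocyte median was 0.59, -0.59 and -0.08 with vehicle, -0.04, 1.08 and 1.79 with AICAR, 0.65, -0.17 and 1.29 with GW1516, and 1.55, 0.57 and -0.16 with the combination. The summed adipocyte signal was 13297 to 17669 with vehicle, 15122 to 24190 with AICAR, 11366 to 21275 with GW1516 and 13308 to 23354 with the combination.

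The 9 measured pericyte and smooth muscle markers had medians of 0.06, -0.05 and 0.10, and summed signals of 9664 to 10245 with vehicle and 8972 to 11035 on treated arrays. Pdgfrb, the receptor that recruits pericytes, had the smallest p in that list, at -0.24 ± 0.13, -0.47 ± 0.13 and -0.64 ± 0.13 (adjusted p = 0.75, 0.278 and 0.0632). The 8 macrophage markers had medians of 0.11, -0.25 and 0.07, with summed signals of 2173 to 2888 with vehicle, 2448 to 2860 with AICAR, 1511 to 2633 with GW1516 and 1841 to 2537 with the combination. By array the macrophage median with GW1516 was -0.22, -0.64 and 0.12, lowest on replicate 2. The 6 fibroblast markers had medians of 0.05, -0.46 and -0.18, with summed signals of 24391 to 33740 with vehicle and 13493 to 35089 on treated arrays, the lowest being GW1516 replicate 2. Of the lymphatic markers 3 of 5 were measured, with medians of 0.01, -0.26 and 0.08, and of the red blood cell markers only Alas2 (1 of 4), at 1.10, 0.51 and 1.49. The lymphatic median with GW1516 was -0.31, -0.67 and 0.05 by array, again lowest on replicate 2. The part of these cell types in the differences of Adgrf5, Ramp2, Tek, Cdh5 and Sox18 was not tested.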

How the data were processed

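Quadriceps RNA was measured on 12 Affymetrix arrays, 3 pools in each of 4 groups. Per the submitters' processing notes, the authors summarised probe intensity with MAS5. The deposited signals have a 2% trimmed mean of 200 on each array. The sources used here give no software version. Of 45101 probe sets 64 controls were left out, 3531 signals below 1 were set to 1, and log2 was taken. The lowest 40% by mean log2 signal (below 28.2) were left out, and the brightest probe set with 1 symbol represented each gene (annotation of 2016; the gene IDs of all 36 members matched RefSeq with the same symbol).

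The fit used limma 3.58.1 under R 4.3.3 (1 mean per group, all 12 arrays, variance trend, 8 residual and 5.91 prior degrees of freedom), two-sided, with Benjamini-Hochberg adjustment over 12771 genes and a threshold of 0.05. Intervals are 95% intervals of that fit. The script was tested on simulated data. Gaps to the marker median used the exact permutation test. The number of arrays limits the precision. Whether equal replicate numbers mark paired arrays is not stated in the labels, and the main fit took the arrays as unpaired. Of 18 same-numbered pairs 0 had a correlation of deviations over 0.1. No differently numbered pair passed 0.1 either (highest 0.095), so these correlations cannot decide whether arrays were paired. The members and lists were chosen with earlier results of these data known. Given in full were Adgrf5, Ramp2, Calcrl, Pecam1, Cdh5, Kdr, Flt1, Tek, Tie1, Nos3, Vegfa, Vegfb, Apln and the members with the 3 smallest p in each contrast, and Adgrf5 and Ramp2 have their 5 most similar genes. Figures were drawn with matplotlib 3.10.9. The alternatives were other scalings, floors, filters, probe set rules, variance models, array weights, a replicate block and leaving out arrays or groups.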

Additional observations from a re-analysis of the deposited data

Results flagged for a closer look

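In 4 members the effect of one drug had opposite directions without and with the other drug, with each array set against the mean of its comparison group. The groups themselves can overlap. Each was tested as the interaction in limma, and no adjusted p was below 0.7.

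Mmrn2, a matrix protein of vessels, had an interaction of 0.48 ± 0.18 (adjusted p = 0.723), with a GW1516 effect of -0.26 without AICAR and 0.22 with it. Its signals were 249.9, 227 and 198 with vehicle, 220.0, 216 and 230.0 with AICAR, 205, 167 and 189.5 with GW1516, and 242, 277 and 258 with the combination. The 4 probe sets of Mmrn2 did not all agree in sign.

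Ramp2 had an interaction of -0.42 ± 0.17 (adjusted p = 0.723), with a GW1516 effect of 0.23 without AICAR and -0.18 with it. Calcrl had an interaction of -0.51 ± 0.37 (adjusted p = 0.796), with an AICAR effect of 0.32 without GW1516 and -0.19 with it. Vegfc had an interaction of 0.85 ± 0.66 (adjusted p = 0.812), with a GW1516 effect of -0.31 without AICAR and 0.54 with it. No sample was tested for standing apart within a group, since groups of 3 are too small for that.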

How the results depend on the processing

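Of the settings tried, those for GW1516, the average GW1516 effect and the interaction left 0 members called throughout. For AICAR 2 members (Adgrf5 and Ramp2) were called with array weights and with only the groups compared, and 0 to 1 when an array was left out. Of all 12771 genes, 15, 28 and 0 to 8 were called in these settings. For the average AICAR effect 2 members were called with array weights, where 29 of all genes were called. The combination count became 0 with quantile normalization, median centring, centring on the general markers, no filter, the mean of the gene's probe sets, no variance trend, the replicate block and only the groups compared, and was 0 to 1 when an array was left out. With the replicate block Adgrf5 had an adjusted p of 0.0906 in the combination, and the block changed no other call of a member. The causes were not tested.

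The general marker median with AICAR was -0.051 under median centring, and the combination median ran from 0.028 to 0.19 when an array was left out. Calcrl with AICAR was -0.060 as the mean of its probe sets, and Pecam1 with AICAR, -0.14 in the main setting, was 0.0072 without vehicle replicate 1 and -0.26 without vehicle replicate 3. For all genes, 15 were called with AICAR under array weights and 28 with only the groups compared, against 1. The combination gave between 2 (no trend) and 95 (without GW1516 replicate 2), against 33. With GW1516 it was 0 to 41 against 12. For the average AICAR effect it was 120 under median centring against 4, and for the average GW1516 effect 7 to 36 against 19. Detection calls were not used, so values near the floor, as for Erg and Vegfc, have an unknown background.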
